A study of Homo sapiens with 18 samples.

Results

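OVCAR3 cells that had received IgA against TSPAN7 were compared with OVCAR3 cells that had received IgA against BDNF, gene by gene. OVCAR3 is an established cell line from a human high-grade serous ovarian carcinoma. The members were the 6 libraries of these antibodies, out of 18 in the study, and all 18732 of 55765 gene symbols that passed a filter on low counts. Each antibody group had 3 libraries, and 3 libraries of untreated OVCAR3 cells from the same series were included in the fit. Both antibodies were given at 0.5 µg/ml for 24 h according to the sample descriptions (a supplementary description gives a shorter time), and the untreated cells received no antibody. The antibodies came from clones of immortalised tumour B cells that had been sorted with a peptide of either antigen, and they were applied to 1 cell line. The study describes its replicates in general as biological replicates or independent experiments, without saying for the antibody libraries whether each was a separate culture, so p-values measure the spread between these libraries, which may be technical.

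IgA reaches the inside of an epithelial cell through the polymeric immunoglobulin receptor (pIgR, gene PIGR), which takes up dimeric IgA at the basolateral side and carries it across the cell. TSPAN7 is a tetraspanin, a membrane protein with 4 spans that organises partner proteins at the cell surface. BDNF is a secreted neurotrophin that signals through the receptor tyrosine kinase TrkB. The comparison asked whether 2 IgA antibodies of different antigens, given to the same cell line, leave the same expression profile. They also came from different B cell clones and preparations. An effect of the antigen cannot be told apart from one of the clone or preparation.

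Library totals lay between 39254350 and 47381836 counts, and mitochondrial genes supplied 8.6% to 10.2% of them. Normalised counts below are divided by each library's effective size and multiplied by the mean of the 9 sizes, and values in 3 libraries are given in the order of replicates 1, 2 and 3. All 14 serous carcinoma markers were expressed. B cell and plasma cell markers were nearly absent. The genes IGHA1, IGHM, IGHG1 and IGKC were at 0 in all 9 libraries, and only 2 of 14 passed the filter (highest count of any marker 85). Leukocyte markers had at most 45 counts in a library, and CD3D, CD3E and TYROBP were among those at 0. Fibroblast and endothelial markers were mixed, and 6 of 9 passed the filter. COL1A2 had 2189 to 3160 and COL1A1 514 to 818 counts, whereas COL3A1 had at most 1 and PDGFRB at most 4.

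BDNF IgA replicate 2 stood apart from the other BDNF IgA libraries. On the first principal component (21.1% of the variance) it scored -3.26, against 19.44 and 28.63 for BDNF IgA replicates 1 and 3, between -24.78 and -13.94 for the TSPAN7 IgA libraries and between 2.92 and 9.92 for untreated cells. Of the genes called below, it was the BDNF IgA library nearest to the TSPAN7 IgA libraries in 560 of 641 called higher and 735 of 843 called lower. Many of the results below are therefore given both with and without it. It was singled out after its values were seen, as the BDNF IgA library nearest to the TSPAN7 IgA libraries. Leaving out such a library widens most differences by construction, so the values without it are no separate support.

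**Figure D1:**
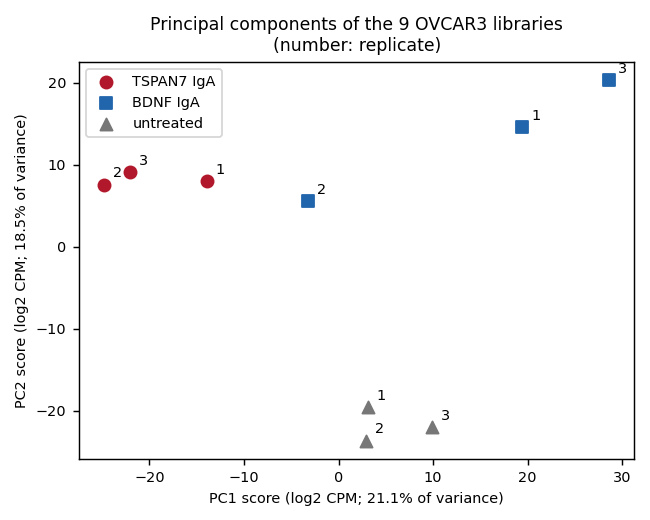
Scores of the 9 libraries on the first and second principal components of log2 CPM, with the replicate number beside each point. BDNF IgA replicate 2 scored -3.26 on the first component and lies between the TSPAN7 IgA libraries on the left and the other BDNF IgA libraries on the right.

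With TSPAN7 IgA, 641 genes were higher (3.42% of those tested) and 843 lower (4.5%, and 7.92% in either direction) than with BDNF IgA (two-sided quasi-likelihood test of edgeR, with an adjusted p below 0.05 after Benjamini-Hochberg). Most differences were small. The median absolute log2 fold change was 0.26 among the genes called higher and 0.36 among those called lower, and 8 and 61 of them differed by at least 2-fold. The median log2 fold change over all tested genes was -0.0017, the level against which the medians of gene lists below are set. Counts of called list members are to be read against the shares over all genes, 3.42% higher and 4.5% lower. Some genes, such as MUC16 and CLDN3, are on several lists, so the list counts are not all separate results. All 3 libraries of TSPAN7 IgA lay above or below all 3 of BDNF IgA for 23.6% of tested genes. Genes called higher had a median GC content of 46.2% and those called lower 52%, against 48.5% for all tested genes with a matched transcript. Called genes split into 43.2% higher, 61.2% higher after a correction for GC content and transcript length (1069 higher, 679 lower) and 33.9% higher with scaling by library size alone (494 and 962).

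Leaving out 1 library changed how many genes passed. Such a fit has fewer samples, so a lost call does not by itself show that a single library carried the difference. Without BDNF IgA replicate 2 the counts were 1554 higher (8.1% of 19179 tested) and 1722 lower (8.98%), and they held 640 and 834 of the original calls. List counts without that library are to be read against these larger shares. They fell to 196 and 286 without BDNF IgA replicate 3, 245 and 384 without BDNF IgA replicate 1, 196 and 308 without TSPAN7 IgA replicate 2, and 342 and 457 without TSPAN7 IgA replicate 3.

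**Figure D2:**
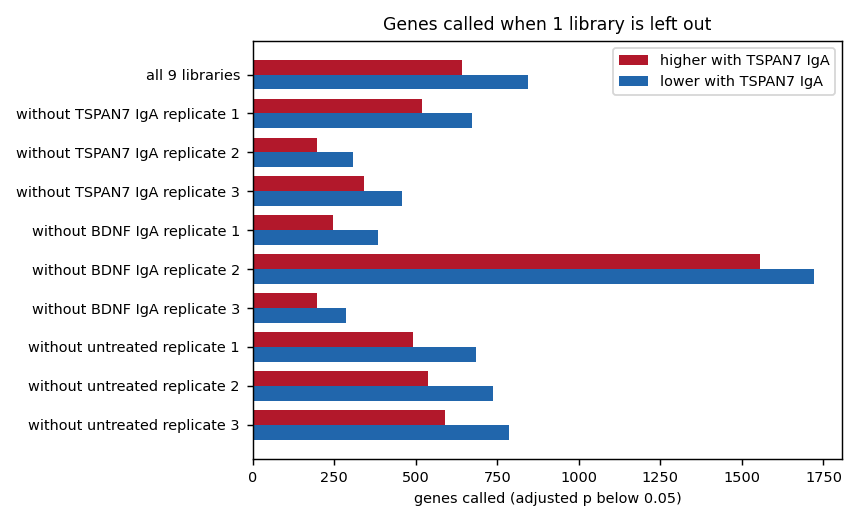
Number of genes called higher (red) and lower (blue) with TSPAN7 IgA than with BDNF IgA, with all 9 libraries and with each left out in turn. The bars are longest without BDNF IgA replicate 2 (1554 and 1722) and shortest without BDNF IgA replicate 3 (196 and 286).

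**Figure D3:**
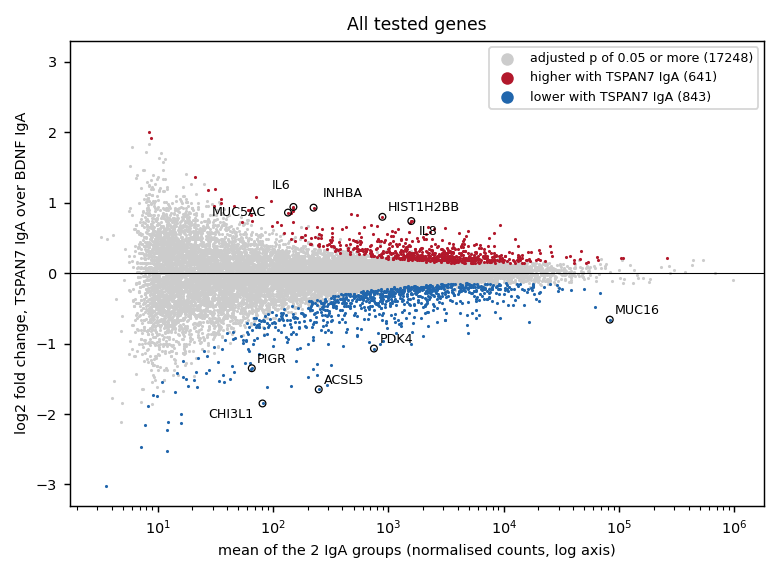
Log2 fold change between TSPAN7 IgA and BDNF IgA against mean normalised count (log axis) for each tested gene, with called genes in red and blue and 10 named genes ringed. At high counts most called genes lie within a narrow band about 0, and the called decreases reach further from 0 than the called increases among genes of about 100 counts.

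The gene of the IgA receptor differed between the antibodies. PIGR (chromosome 1, 207101867 to 207119811, GRCh37) had 48.9, 40.1 and 21.7 normalised counts with TSPAN7 IgA, 82.9, 59.9 and 140 with BDNF IgA and 73.9, 89 and 65.9 in untreated cells. Every TSPAN7 IgA library was below every BDNF IgA library, with a log2 difference of -1.35 (SE 0.30, edgeR adjusted p 0.00716), and -1.58 without BDNF IgA replicate 2. That call was lost without BDNF IgA replicate 3 (-0.94, edgeR adjusted p 0.0821). FCGRT, which encodes the neonatal Fc receptor for IgG, was also lower, with 125, 120 and 127 against 204, 180 and 248 normalised counts and a difference of -0.77 (SE 0.14, edgeR adjusted p 0.00195) on the log2 scale. The other 8 tested genes of IgA binding and transcytosis were not called, and without BDNF IgA replicate 2 the list had 4 of 11 lower.

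BDNF itself (chromosome 11, 27676440 to 27743605) was higher with TSPAN7 IgA, at 569, 669 and 581 normalised counts against 374, 568 and 382 with BDNF IgA and 387, 404 and 357 in untreated cells, or 0.46 (SE 0.12, edgeR adjusted p 0.022) on the log2 scale. BDNF IgA replicate 2 was close to the TSPAN7 IgA libraries. Without it the value was 0.68, whereas leaving out TSPAN7 IgA replicate 2 or BDNF IgA replicate 1 or 3 ended the call (edgeR adjusted p 0.148, 0.14 and 0.135). BDNF overlaps an antisense gene, whose reads cannot be told apart from its own if strand was ignored. TSPAN7 had few counts, 25, 21.1 and 16.2 against 31.3, 28 and 36.1, and was not called (log2 fold change -0.61, SE 0.31, edgeR adjusted p 0.253). Among 22 tetraspanins tested, 1 was higher and 3 were lower (4.55% and 13.6%, against 3.42% and 4.5% of all genes), with a list median of -0.04. UPK1B, a urothelial tetraspanin, rose (7650, 7372 and 7664 against 6743, 5762 and 5285 normalised counts, log2 fold change 0.35, SE 0.06, edgeR adjusted p 0.00123). CD9, an abundant tetraspanin of exosomes and cell adhesion, was lower at 11787, 11300 and 11767 against 16136, 12015 and 16096, and BDNF IgA replicate 2 was nearer to the TSPAN7 IgA libraries than to the other BDNF IgA libraries. The calls of CD9 (-0.34) and CD82 (-0.36) were lost without TSPAN7 IgA replicate 2 or BDNF IgA replicate 1, that of CD82 also without TSPAN7 IgA replicate 3, and that of TSPAN31 (-0.39) without BDNF IgA replicate 3. Of 9 neurotrophin genes and receptors, SORCS1, a sorting receptor of the VPS10P family, fell by 0.61 on the log2 scale, and BDNF was the other member called. Without BDNF IgA replicate 2, 1 was higher and 3 lower.

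Several cytokine genes of the NF-kB response were higher with TSPAN7 IgA, and several complement and acute-phase genes on the same list were lower. Of 37 tested members, 7 were higher and 4 lower (18.9% and 10.8%, against 3.42% and 4.5% of all genes). The counts were 9 and 7 without BDNF IgA replicate 2, and TSPAN7 IgA replicate 2 left out gave 4 higher. The list median was 0.09, and -0.01 without BDNF IgA replicate 2. Against untreated cells, 22 members were higher with TSPAN7 IgA and 27 with BDNF IgA (4.46% and 4.49% of all genes were). None was lower with either (0 in both), and the median was 0.44 with each. These comparisons share the untreated libraries. IL8 (CXCL8; chromosome 4, 74606236 to 74609433), the neutrophil-attracting chemokine, had 1751, 2221 and 1962 normalised counts with TSPAN7 IgA, 1176, 1300 and 1087 with BDNF IgA and 738, 706 and 732 in untreated cells. The 3 groups did not overlap, and the antibodies differed by 0.74 (SE 0.08, edgeR adjusted p 8.89e-06) on the log2 scale. IL6 had 172, 233 and 188 with TSPAN7 IgA against 70.7, 155 and 82.7 with BDNF IgA and 73.9, 82.9 and 75 in untreated cells (log2 fold change 0.94, SE 0.21, edgeR adjusted p 0.00746). BDNF IgA replicate 2 lay close to the TSPAN7 IgA libraries. The value of IL6 was 1.36 without it, and its call was lost without TSPAN7 IgA replicate 2 or BDNF IgA replicate 1 (edgeR adjusted p 0.069 and 0.0571).

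In the other direction, CFB, which encodes complement factor B, had 1477, 1423 and 1322 normalised counts with TSPAN7 IgA, 2466, 2001 and 3376 with BDNF IgA and 1340, 1267 and 1364 in untreated cells. The TSPAN7 IgA libraries overlapped the untreated ones and lay below all BDNF IgA libraries (log2 fold change -0.89, SE 0.11, edgeR adjusted p 6.42e-05). LCN2, an iron-siderophore binding protein of acute inflammation, gave 5018, 5284 and 4412 against 6260, 6445 and 9423 (log2 fold change -0.59, SE 0.12, edgeR adjusted p 0.00336, and -0.37 without BDNF IgA replicate 3), and C3 and SAA1 were the other members called lower. Outside that list, IL1R2, the decoy receptor for interleukin-1, rose from 764, 819 and 815 to 1103, 1271 and 1129 normalised counts (log2 fold change 0.55, SE 0.07, edgeR adjusted p 5.2e-05). CHI3L1, a secreted glycoprotein of the chitinase family, had the lowest log2 fold change of the named genes, with 39.9, 32.7 and 33.6 against 89.9, 93.9 and 199 normalised counts and 72.9, 36.4 and 67.7 in untreated cells (log2 fold change -1.85, SE 0.30, edgeR adjusted p 0.00057). HP, the haemoglobin scavenger haptoglobin, followed the same order with 47.9, 46.4 and 36.8 against 112, 107 and 182 (log2 fold change -1.61, SE 0.25, edgeR adjusted p 0.000366). HP has a close copy, HPR, that can share reads.

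Some immediate-early genes were higher with TSPAN7 IgA. Of 24 members tested, 6 were higher (25%, against 3.42% of all genes) and 0 lower at a list median of 0.08 (10 and 0 without BDNF IgA replicate 2). FOSB, a subunit of the transcription factor AP-1, had 2730, 2631 and 2943 normalised counts against 1639, 2009 and 1892 with BDNF IgA and 1657, 1580 and 1780 in untreated cells (log2 fold change 0.58, SE 0.07, edgeR adjusted p 3.05e-05). The BDNF IgA and untreated libraries overlapped, and the TSPAN7 IgA libraries were above both. CTGF, a matricellular growth factor gene, gave 2294, 2663 and 2160 against 1595, 2024 and 1336 (log2 fold change 0.52, SE 0.10, edgeR adjusted p 0.00218). CYR61 gave 0.41, and 0.33 without TSPAN7 IgA replicate 2, where it was not called (edgeR adjusted p 0.0667). ATF3 gave 0.51 and lost its call without TSPAN7 IgA replicate 3 or BDNF IgA replicate 1 or 3. Of 9 MAP kinase phosphatase genes, whose products switch MAP kinases off, 2 were higher (22.2%, against 3.42% of all genes) and 0 lower. DUSP1 had 3644, 3990 and 3679 against 2173, 3098 and 1979 normalised counts (log2 fold change 0.64, SE 0.10, edgeR adjusted p 0.000516) and DUSP5 1514, 1703 and 1604 against 1124, 1336 and 1111 (log2 fold change 0.43, SE 0.07, edgeR adjusted p 0.000761).

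ERK pathway targets split, with 4 of 20 higher and 3 lower (20% and 15%, against 3.42% and 4.5% of all genes) and a median of 0.01. Without BDNF IgA replicate 2 the counts were 7 and 5, without TSPAN7 IgA replicate 2 there were 2 higher, and after the GC and length correction 9 were higher. FOSL1, another AP-1 subunit, rose to 1834, 1821 and 1752 normalised counts with TSPAN7 IgA from 1150, 1473 and 997 with BDNF IgA, with untreated cells at 1408, 1447 and 1454 (log2 fold change 0.58, SE 0.09, edgeR adjusted p 0.000342). CCND1, which encodes cyclin D1, rose by less, 22694, 22871 and 21894 against 19037, 19551 and 16700 (log2 fold change 0.29, SE 0.06, edgeR adjusted p 0.0028). ETV1, an ETS transcription factor gene, moved the other way, from 705, 619 and 862 to 438, 387 and 436 (log2 fold change -0.79, SE 0.10, edgeR adjusted p 8.81e-05). EREG (epiregulin, a ligand of the EGF receptor) had 135, 141 and 127 against 83.9, 89.9 and 71.3 (log2 fold change 0.72, SE 0.17, edgeR adjusted p 0.0112), with the call lost without TSPAN7 IgA replicate 2 or BDNF IgA replicate 3. NRG1, which encodes neuregulin 1, a ligand of ERBB3 and ERBB4, had 1792, 2143 and 1858 against 1054, 1512 and 965 (log2 fold change 0.71, SE 0.11, edgeR adjusted p 0.000337). Of 18 ephrins and Eph receptors, 0 were higher and 2 lower (11.1%, against 4.5% of all genes), EPHB6 at -0.72 and EPHB3 at -0.46. Without BDNF IgA replicate 2 the list had 1 higher and 5 lower.

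Replication-dependent histone genes, which are transcribed in S phase and whose mRNAs end in a stem-loop in place of a poly(A) tail, had the highest count of members called higher of any list. Of 51 tested, 31 were called higher and 0 lower, against 3.42% higher over all genes, and 49 had a positive log2 fold change (median 0.25). Against untreated cells 33 were lower with BDNF IgA (3.18% of all genes were), whereas with TSPAN7 IgA 5 were higher and 6 lower (4.46% and 4.08% of all genes). These comparisons share the untreated libraries. HIST1H2BB, a core histone H2B gene, had 1133, 1188 and 1064 normalised counts with TSPAN7 IgA, 605, 783 and 559 with BDNF IgA and 944, 1019 and 911 in untreated cells (log2 fold change 0.80, SE 0.09, edgeR adjusted p 3.36e-05, and 0.96 without BDNF IgA replicate 2). The BDNF IgA libraries were below all others. HIST1H1B, a linker histone gene, had 2682, 2695 and 2673 against 1494, 2121 and 1513 (log2 fold change 0.65, SE 0.09, edgeR adjusted p 0.000168), with untreated cells at 2608, 2225 and 2331. HIST1H2BM, HIST1H1A and HIST1H3J gave 0.63, 0.68 and 0.67. The count was 41 without BDNF IgA replicate 2 (80.4%, against 8.1% of all genes) and 20 without TSPAN7 IgA replicate 1 or BDNF IgA replicate 3. Histone genes are near-identical copies that can share or lose reads, so the value of a single gene is uncertain.

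Promoters of these genes carry known cell cycle elements, and 1 is shown for each of 3 groups, taken from RefSeq (GRCh38.p14, 250 bases before to 50 bases after the start, coding strand). Capitals mark the element. H2B genes are known for an octamer, ATTTGCAT, which was found on either strand in 7 of 10 H2B promoters matched (15 genes tested) and 10 of 32 promoters of the other histones, against 1.77% of all 35116 promoters. HIST1H2BB is shown as the H2B gene with the highest log2 fold change among those called (chr6:26043664-26043963, GRCh38.p14, minus strand).
HIST1H2BB: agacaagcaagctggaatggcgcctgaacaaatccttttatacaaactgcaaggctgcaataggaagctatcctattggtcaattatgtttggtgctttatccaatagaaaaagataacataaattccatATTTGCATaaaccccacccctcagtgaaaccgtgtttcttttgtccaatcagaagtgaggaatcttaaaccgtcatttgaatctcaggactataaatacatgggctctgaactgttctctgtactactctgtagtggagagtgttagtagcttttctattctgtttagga
S-phase genes are known for E2F elements. TTTGGCGC or TTTCCCGC was found on either strand in 19 of 39 promoters matched, against 2.27% of all promoters. CDC6 is shown as a licensing factor that holds it (chr17:40287629-40287928, GRCh38.p14, plus strand).
CDC6: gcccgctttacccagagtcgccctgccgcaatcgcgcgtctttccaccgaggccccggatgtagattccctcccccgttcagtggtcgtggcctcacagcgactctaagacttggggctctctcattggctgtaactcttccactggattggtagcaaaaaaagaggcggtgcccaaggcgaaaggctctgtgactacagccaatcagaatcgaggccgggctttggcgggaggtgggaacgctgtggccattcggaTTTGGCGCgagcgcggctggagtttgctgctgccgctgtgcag
Mitotic genes are known for the CHR element, TTTGAA, found on either strand in 23 of 34 promoters matched, against 15.2% of all promoters. The same letters were in 16 of 42 histone promoters matched (38.1%), including that of HIST1H2BB, where they are not marked. CDC20 is shown as a mitotic gene that kept its call without any single library (chr1:43358731-43359030, GRCh38.p14, plus strand).
CDC20: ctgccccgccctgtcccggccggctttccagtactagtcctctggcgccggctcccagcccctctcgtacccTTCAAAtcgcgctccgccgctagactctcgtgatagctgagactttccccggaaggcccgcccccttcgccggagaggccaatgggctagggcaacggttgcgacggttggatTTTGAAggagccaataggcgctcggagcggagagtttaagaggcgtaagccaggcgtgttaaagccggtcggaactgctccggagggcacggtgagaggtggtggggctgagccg
These matches describe the sequences and do not show binding.

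Of 45 DNA replication and S-phase genes tested, 20 were called higher with TSPAN7 IgA and 0 lower, against 3.42% higher over all genes, and 44 had a positive log2 fold change, with a median of 0.20. The count was 37 without BDNF IgA replicate 2 (82.2%, against 8.1% of all genes). It was 7, 2 and 9 without TSPAN7 IgA replicates 1, 2 and 3, 2 without BDNF IgA replicate 1 or 3, 12 without untreated replicate 1 and 7 with only the 6 libraries compared. UHRF1, which maintains DNA methylation behind the fork, had 2160, 2133 and 2183 normalised counts against 1627, 1954 and 1550 with BDNF IgA and 1969, 1870 and 1853 in untreated cells (log2 fold change 0.34, SE 0.07, edgeR adjusted p 0.00315). BDNF IgA replicate 2 lay within the untreated range and the TSPAN7 IgA libraries above it. CDC6, which loads the replicative helicase, had 2080, 2238 and 1986 against 1462, 2079 and 1398 (log2 fold change 0.35, SE 0.10, edgeR adjusted p 0.0275). There the groups overlapped through BDNF IgA replicate 2, and without that library the value was 0.56. The CDC6 call was lost without TSPAN7 IgA replicate 1 or 2, without BDNF IgA replicate 1 or 3 and with DESeq2 (DESeq2 adjusted p 0.148).

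Mitosis and G2/M genes followed, with 11 of 40 higher (27.5%, against 3.42% of all genes), 0 lower and a median of 0.14. The count was 25 without BDNF IgA replicate 2, 5 and 6 without TSPAN7 IgA replicates 2 and 3, and 7 and 4 without BDNF IgA replicates 1 and 3. CDC20, the activator of the anaphase-promoting complex, had 4036, 4060 and 3997 against 3303, 3614 and 2918 normalised counts, with untreated cells at 3772, 3747 and 3578 (log2 fold change 0.30, SE 0.06, edgeR adjusted p 0.00284), a range that BDNF IgA replicate 2 reached. ANLN, which encodes the contractile ring protein anillin, had 11775, 13071 and 12262 against 9665, 11257 and 9309 (log2 fold change 0.30, SE 0.06, edgeR adjusted p 0.0028). CKAP2L gave 0.27. Against untreated cells, 14 mitotic genes were lower with BDNF IgA (3.18% of all genes were) and 6 with TSPAN7 IgA (4.08% of all genes), and none was higher with either (0 in both).

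**Figure D4:**
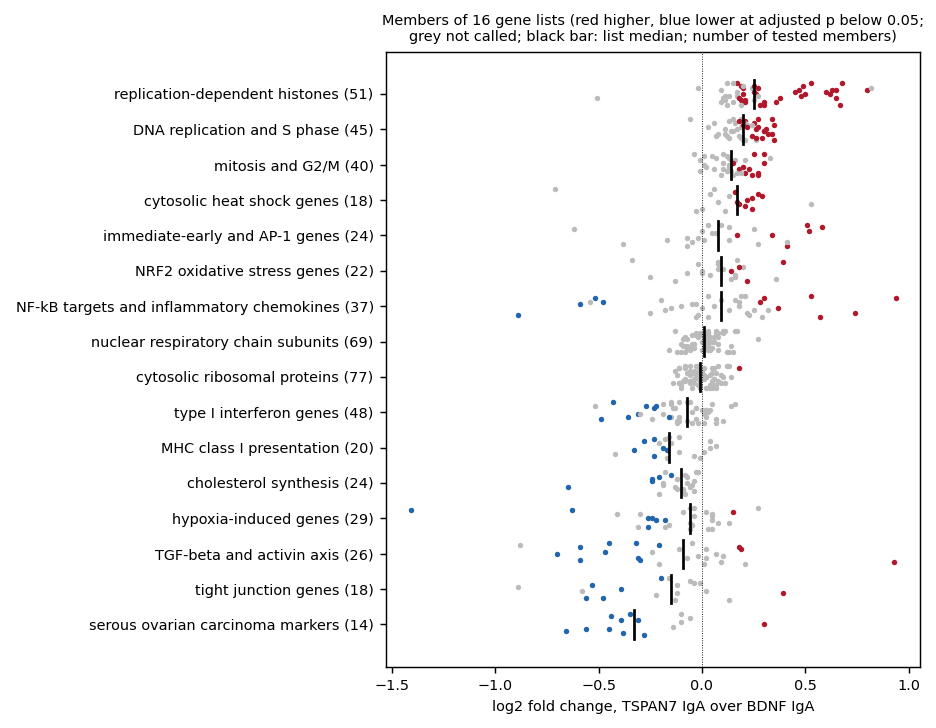
Log2 fold changes between TSPAN7 IgA and BDNF IgA for the tested members of 16 gene lists, 1 point per gene, with red for called higher, blue for called lower and grey for not called. Histone genes (median 0.25) and S-phase genes (0.20) lie to the right, serous carcinoma markers (-0.33) to the left, and ribosomal protein and respiratory chain genes about 0.

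With all 9 libraries, the cytosolic heat shock and NRF2 genes that were called were all higher with TSPAN7 IgA. Of 18 cytosolic heat shock genes, 9 were higher (50%, against 3.42% of all genes) and 0 lower (median 0.17), with 11 higher without BDNF IgA replicate 2. The count of 9 fell with most single libraries left out. It was 0 without BDNF IgA replicate 3 or TSPAN7 IgA replicate 2, and 2 without BDNF IgA replicate 1. There were 4 and 3 without TSPAN7 IgA replicates 1 and 3, and 4, 5 and 8 without untreated replicates 1, 2 and 3. HSPH1, a nucleotide exchange factor of HSP70, had 7297, 7805 and 7354 against 6399, 6998 and 5662 normalised counts (log2 fold change 0.24, SE 0.06, edgeR adjusted p 0.0126), with untreated cells at 7169, 7250 and 7175. HSPA1B (0.24) has a near-identical copy, HSPA1A, so its value is uncertain. Of 22 NRF2 genes, 4 were higher (18.2%, against 3.42% of all genes) and 0 lower. Leaving out BDNF IgA replicate 2 gave 10 higher, and the count was 1 without BDNF IgA replicate 1 or 3, TSPAN7 IgA replicate 1 or 3 or untreated replicate 1. There were 2 without TSPAN7 IgA replicate 2 or untreated replicate 2 or 3. GCLM, a subunit of the enzyme that limits glutathione synthesis, was one of them, at 2436, 2904 and 2637 against 2015, 2151 and 1942 (log2 fold change 0.39, SE 0.06, edgeR adjusted p 0.000663).

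Ribosome biogenesis genes had 3 of 32 higher (9.38%, against 3.42% of all genes), 0 lower and a median of 0.11. The count was 16 without BDNF IgA replicate 2, 0 without BDNF IgA replicate 1 or 3 and 1 without TSPAN7 IgA replicate 2 or 3. NPM1, the nucleolar protein nucleophosmin, had 39928, 43596 and 45022 against 38578, 39651 and 35393 (0.18). Of 77 cytosolic ribosomal protein genes, 1 was higher and 0 lower (median -0.01). Without BDNF IgA replicate 2, 2 were higher and 7 lower (2.6% and 9.09%, against 8.1% and 8.98% of all genes). Of 69 nuclear respiratory chain genes 0 were called by edgeR in either direction (median 0.01), or 1 higher and 2 lower without that library. Of 13 mitochondrially encoded mRNAs 1 was called. Leaving out BDNF IgA replicate 2 gave 5 higher and 1 lower, and leaving out TSPAN7 IgA replicate 1 gave 4 higher. The gene called was MT-ND2 at 0.21, which was not called without BDNF IgA replicate 1 or 3, TSPAN7 IgA replicate 2 or 3 or untreated replicate 1.

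Type I interferon genes, which both antibodies raised against untreated cells (44 of 48 with TSPAN7 IgA and 46 with BDNF IgA, against 4.46% and 4.49% of all genes), differed little between the antibodies. Of the 48, 8 were lower with TSPAN7 IgA (16.7%, against 4.5% of all genes) and 0 higher, with a median of -0.07. Without BDNF IgA replicate 2, 12 were lower and 1 higher. The count lower was 4, 3 and 5 without TSPAN7 IgA replicates 1, 2 and 3, and 5 and 3 without BDNF IgA replicates 1 and 3. IFITM1, which blocks virus entry at the membrane, had 3335, 3192 and 3320 normalised counts with TSPAN7 IgA, 4333, 3812 and 5148 with BDNF IgA and 1091, 1117 and 1040 in untreated cells. The 3 groups did not overlap, and the step between the antibodies (log2 fold change -0.43, SE 0.07, edgeR adjusted p 0.000664) was smaller than that of either over untreated cells (1.60 and 2.03). IFITM1 has close copies that can share reads. TRIM22, an interferon-induced antiviral ubiquitin ligase, gave 751, 666 and 724 against 943, 891 and 1171 with untreated cells at 321, 313 and 291 (log2 fold change -0.49, SE 0.09, edgeR adjusted p 0.00146). IFI27 and IFI44L had log2 fold changes of -0.36 and -0.31. The IFI27 call was lost without TSPAN7 IgA replicate 1 or 2 or BDNF IgA replicate 3 and with DESeq2, and the IFI44L call without any TSPAN7 IgA replicate or BDNF IgA replicate 1 or 3. The interferon-stimulated response element, searched as a pair of GAAA blocks separated by 2 bases of any kind, stood on either strand in 27 of 41 matched promoters of the list, against 3.57% of all promoters, and that of IFITM1 is shown as a called member that holds it (chr11:313790-314089, GRCh38.p14, plus strand).
IFITM1: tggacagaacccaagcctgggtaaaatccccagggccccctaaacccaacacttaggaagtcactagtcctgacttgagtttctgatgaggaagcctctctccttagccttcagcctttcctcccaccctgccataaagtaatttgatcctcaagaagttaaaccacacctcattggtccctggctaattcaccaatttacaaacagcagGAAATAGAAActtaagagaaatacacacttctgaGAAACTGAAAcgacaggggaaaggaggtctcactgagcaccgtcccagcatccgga

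The interferon receptor, JAK, STAT and IRF genes had 3 of 19 lower (15.8%, against 4.5% of all genes) and 0 higher. The count lower was 4 without BDNF IgA replicate 2, and 1 without TSPAN7 IgA replicate 2 or 3 or BDNF IgA replicate 3. SOCS3, a feedback inhibitor of JAK signalling, was below both other groups, at 1335, 1256 and 1241 against 1597, 1498 and 1709 and 1680, 1899 and 2003 in untreated cells (log2 fold change -0.33, SE 0.07, edgeR adjusted p 0.00433). Of 20 genes of MHC class I presentation, 6 were called lower and 0 higher, with a median of -0.16, against 4.5% lower over all genes. The count was 11 without BDNF IgA replicate 2 (55%, against 8.98% of all genes). It was 0 without TSPAN7 IgA replicate 2 or BDNF IgA replicate 3, 2 without BDNF IgA replicate 1 and 3 without TSPAN7 IgA replicate 1 or 3. HLA-B and HLA-C, class I heavy chains, gave -0.28 and -0.23. HLA genes resemble each other and differ from the reference sequence, so their levels are uncertain. Of 15 ligands of T cells and NK cells tested, 1 was called, a share near the 7.92% called in either direction over all genes. VTCN1 (B7-H4), an inhibitory ligand found on ovarian carcinoma cells, had 53.9, 73.8 and 70.4 against 147, 90.9 and 169 normalised counts and 90.2, 91 and 67.7 in untreated cells (log2 fold change -1.04, SE 0.21, edgeR adjusted p 0.00449).

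Of 14 markers of serous ovarian carcinoma tested, 9 were lower with TSPAN7 IgA and 1 higher, with a median log2 fold change of -0.33, against 4.5% lower over all genes. The count lower was 10 without BDNF IgA replicate 2, and 7 without TSPAN7 IgA replicate 2 or 3 or BDNF IgA replicate 1 or 3. MUC16, which encodes the CA125 antigen, had 63141, 64536 and 65115 normalised counts with TSPAN7 IgA, 102297, 85059 and 118085 with BDNF IgA and 86097, 95575 and 84830 in untreated cells. The TSPAN7 IgA libraries were below all others and near each other, while the BDNF IgA and untreated libraries overlapped (log2 fold change -0.66, SE 0.08, edgeR adjusted p 3.05e-05, and -0.78 without BDNF IgA replicate 2). WFDC2, which encodes the serum marker HE4, had 9360, 9483 and 9055 against 13547, 10304 and 14199 (log2 fold change -0.45, SE 0.08, edgeR adjusted p 0.000782). MSLN, the surface glycoprotein mesothelin, had 1514, 1432 and 1347 against 1918, 1709 and 2191 (log2 fold change -0.44, SE 0.08, edgeR adjusted p 0.00118). The member called higher was KRT7, a simple epithelial keratin, at 28366, 29189 and 27380 against 22353, 25149 and 21501 (0.30).

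Of 7 mucins tested, 3 were lower and 1 higher (42.9% and 14.3%, against 4.5% and 3.42% of all genes), with a median of -0.41. MUC16, given above as a serous carcinoma marker, was among those lower. MUC1, a membrane mucin, fell from 1015, 806 and 1194 to 739, 664 and 730 (log2 fold change -0.50, SE 0.10, edgeR adjusted p 0.00415), and MUC20 gave -0.43, a call lost with only the 6 libraries compared, after the GC and length correction and without any TSPAN7 IgA replicate or BDNF IgA replicate 1 or 3. MUC5AC, a gel-forming secreted mucin, moved the other way. It had 175, 192 and 156 with TSPAN7 IgA and 208, 187 and 212 in untreated cells, against 86.9, 108 and 93.1 with BDNF IgA (log2 fold change 0.86, SE 0.14, edgeR adjusted p 0.000656). Of 18 tight junction genes, 5 were lower and 1 (CLDN1) higher (27.8% and 5.56%, against 4.5% and 3.42% of all genes), with a median of -0.15. There were 8 lower without BDNF IgA replicate 2, and 3 without TSPAN7 IgA replicate 2 or 3 or BDNF IgA replicate 1 or 3. CLDN3, a claudin that is abundant in ovarian carcinoma, had 1305, 1151 and 1166 against 1912, 1387 and 2058 (log2 fold change -0.56, SE 0.10, edgeR adjusted p 0.00109), and CLDN10 and TJP3 gave -0.53 and -0.48.

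Of 19 genes of epithelial and mesenchymal state, 3 were lower (15.8%, against 4.5% of all genes) and 0 higher. Those called lower included both an epithelial and mesenchymal genes. CDH1 (E-cadherin) gave -0.35, FN1 (fibronectin) -0.38 and SNAI2, a repressor of E-cadherin, -0.34. FN1 was above untreated cells with both antibodies (5548, 5433 and 4890 with TSPAN7 IgA, 6987, 5996 and 7725 with BDNF IgA, 4115, 3811 and 3790 untreated). The count lower was 11 without BDNF IgA replicate 2, 5 without TSPAN7 IgA replicate 1 and 6 with DESeq2, and the SNAI2 call was lost without TSPAN7 IgA replicate 2 or BDNF IgA replicate 1. Of 15 motile cilia genes, 3 were lower (20%, against 4.5% of all genes) and 0 higher. The count lower was 4 without BDNF IgA replicate 2 and 1 without BDNF IgA replicate 3. CAPS, a calcium-binding protein of ciliated cells, had 88.9, 79.1 and 72.5 against 139, 130 and 151 (log2 fold change -0.80, SE 0.15, edgeR adjusted p 0.00201). FOXJ1, the master regulator of motile cilia, had few counts (5.99, 11.6 and 9.74 against 32.3, 13 and 32.3 normalised counts, log2 fold change -1.50, SE 0.44, edgeR adjusted p 0.0392), and its call was lost without any TSPAN7 IgA replicate, BDNF IgA replicate 1 or 3 or untreated replicate 2.

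The activin subunit genes moved apart. INHBA, which encodes the subunit of activin A, had 270, 266 and 349 normalised counts with TSPAN7 IgA, 166, 202 and 97.9 with BDNF IgA and 112, 126 and 124 in untreated cells. All 3 TSPAN7 IgA libraries were above the others (log2 fold change 0.93, SE 0.18, edgeR adjusted p 0.00248, and 1.17 without BDNF IgA replicate 2). INHBB, the subunit of activin B, had 918, 882 and 820 against 1431, 1176 and 1642 (log2 fold change -0.70, SE 0.10, edgeR adjusted p 0.000129), and FST, which encodes the activin antagonist follistatin, 761, 676 and 663 against 1200, 943 and 1016 (log2 fold change -0.59, SE 0.08, edgeR adjusted p 0.000193). The latent TGF-beta binding proteins LTBP1, LTBP2, LTBP3 and LTBP4, which tether TGF-beta to the matrix, were all called lower. LTBP1 had 4175, 3574 and 3863 against 5944, 4973 and 6577 normalised counts with untreated cells at 4528, 4556 and 4422 (log2 fold change -0.59, SE 0.07, edgeR adjusted p 5.04e-05). In all, 9 of 26 genes of the TGF-beta and activin axis were lower and 3 higher (34.6% and 11.5%, against 4.5% and 3.42% of all genes). The list median was -0.09, and the counts were 11 and 3 without BDNF IgA replicate 2. The counts lower were 5, 4 and 5 without TSPAN7 IgA replicate 2, BDNF IgA replicate 1 and BDNF IgA replicate 3, with 1 higher in each.

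Some named genes that were lower encode enzymes and regulators of lipid and fuel metabolism. ACSL5 (chromosome 10, 114133874 to 114188137), which activates long-chain fatty acids, had 115, 114 and 133 normalised counts with TSPAN7 IgA, 383, 310 and 441 with BDNF IgA and 173, 191 and 227 in untreated cells. The untreated cells lay between, apart from both antibodies (log2 fold change -1.65, SE 0.14, edgeR adjusted p 2.52e-06). PDK4, which turns pyruvate dehydrogenase off, had the same order with 490, 438 and 522, 971, 809 and 1271 and 599, 606 and 737 (log2 fold change -1.07, SE 0.12, edgeR adjusted p 3.05e-05). THRSP, a lipogenic nuclear protein, had 183, 177 and 194 against 441, 350 and 568 (log2 fold change -1.30, SE 0.16, edgeR adjusted p 5.04e-05), and there the BDNF IgA libraries overlapped the untreated ones (482, 435 and 640). SCD, the desaturase that makes monounsaturated fatty acids, had 17408, 15774 and 16376 against 22557, 17770 and 23891 (log2 fold change -0.37, SE 0.07, edgeR adjusted p 0.00244).

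On the lists, 4 of 16 fatty acid synthesis genes were lower (25%, against 4.5% of all genes) and 0 higher, with a median of -0.15. The counts were 7 lower and 2 higher without BDNF IgA replicate 2, and 2 lower without TSPAN7 IgA replicate 2. FADS1 and FADS2 are among the 4 called lower and overlap each other in the annotation, so their reads may be shared. All 24 cholesterol synthesis genes tested had a negative log2 fold change (median -0.10), and 5 were called lower (20.8%, against 4.5% of all genes). The count lower was 8 without BDNF IgA replicate 2 and 3 without TSPAN7 IgA replicate 2 or 3 or BDNF IgA replicate 3. TM7SF2, a sterol reductase, had 502, 460 and 479 against 794, 595 and 864 (log2 fold change -0.65, SE 0.10, edgeR adjusted p 0.000516), and FDFT1 (squalene synthase) gave -0.21. Hypoxia-induced genes had 7 of 29 lower and 1 (LDHA) higher (24.1% and 3.45%, against 4.5% and 3.42% of all genes), with a median of -0.06. There were 11 lower without BDNF IgA replicate 2, 3 without any TSPAN7 IgA replicate, 2 without BDNF IgA replicate 1 and 1 without BDNF IgA replicate 3. NDRG1, a stress- and hypoxia-induced gene, had 7325, 7303 and 7129 normalised counts against 12109, 8913 and 12642, with BDNF IgA replicate 2 nearest to the TSPAN7 IgA libraries (log2 fold change -0.63, SE 0.09, edgeR adjusted p 0.00028, and -0.77 without it). CA9, a cell-surface carbonic anhydrase, had 24, 24.2 and 27.1 against 103, 27 and 70.3 (log2 fold change -1.41, SE 0.37, edgeR adjusted p 0.0224) and was not called without any TSPAN7 IgA replicate or without BDNF IgA replicate 1 or 3. Of 12 VEGF genes and receptors, 0 were called, 2 without BDNF IgA replicate 2.

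Pro-apoptotic members of the BCL2 family were among the genes called lower and anti-apoptotic members among those called higher. There were 2 of 15 in each direction (13.3%, against 3.42% higher and 4.5% lower over all genes). BMF, a BH3-only activator of apoptosis, had 450, 435 and 475 normalised counts with TSPAN7 IgA, 873, 715 and 1099 with BDNF IgA and 567, 607 and 687 in untreated cells (log2 fold change -0.98, SE 0.11, edgeR adjusted p 3.45e-05). BCL2L11 (BIM) gave -0.32. BCL2 and BCL2L1, which restrain apoptosis, gave 0.35 and 0.20, and both calls were lost with library-size scaling, with only the 6 libraries compared, without any TSPAN7 IgA replicate, without BDNF IgA replicate 1 or 3 and without untreated replicate 1. Of 15 p53 targets, 2 were lower (13.3%, against 4.5% of all genes) and 0 higher. One was TP53INP1, an autophagy and cell death gene, at 902, 959 and 939 against 1447, 1242 and 1732 (log2 fold change -0.66, SE 0.09, edgeR adjusted p 7.75e-05). The other, TP53I3, lost its call without any TSPAN7 IgA replicate, BDNF IgA replicate 3 or untreated replicate 1 or 2. ATF4 stress response genes had 4 of 28 higher and 4 lower (14.3% each, against 3.42% and 4.5% of all genes). SLC7A5, a subunit of a large neutral amino acid transporter, had 14590, 15775 and 13399 against 9435, 13169 and 8755 (log2 fold change 0.48, SE 0.09, edgeR adjusted p 0.00302), while NUPR1 (-0.33, and -0.21 without BDNF IgA replicate 3, where it was not called) and ALDH1L2 (-0.32) were lower. The ATF4 counts were 2 and 1 higher without BDNF IgA replicates 1 and 3, and 0 to 2 lower without any TSPAN7 IgA replicate, BDNF IgA replicate 1 or 3 or untreated replicate 1 or 3. Of 21 unfolded protein response genes, 1 was lower (XBP1, -0.19), a share of 4.76% that is near the 4.5% of all genes. XBP1 was not called without any TSPAN7 IgA replicate, BDNF IgA replicate 1 or 3 or untreated replicate 1. The 3 metallothioneins tested were not called.

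Other named genes were higher with TSPAN7 IgA. PF4V1, a platelet factor chemokine with a close copy in PF4, had 89.9, 150 and 150 against 53.6, 83.9 and 53.2 and 115, 112 and 117 in untreated cells (log2 fold change 1.03, SE 0.21, edgeR adjusted p 0.00425). IGFBP1, which binds insulin-like growth factors, had 165, 221 and 194 against 79.8, 137 and 97.9 (log2 fold change 0.88, SE 0.17, edgeR adjusted p 0.00292). KRT14, a basal keratin, had 784, 649 and 637 against 321, 510 and 335, with untreated cells at 504, 449 and 449 (log2 fold change 0.83, SE 0.13, edgeR adjusted p 0.000371). TNS4, a focal adhesion protein, was above untreated cells with both antibodies, at 203, 173 and 175 and 93, 131 and 82.7 against 57.7, 61.7 and 52.4 (log2 fold change 0.85, SE 0.17, edgeR adjusted p 0.00303 between the antibodies). STEAP4, a metalloreductase, had 149, 140 and 147 against 105, 78.9 and 86.5 (log2 fold change 0.69, SE 0.15, edgeR adjusted p 0.00739), and SLC8A1, a sodium-calcium exchanger, 2387, 2517 and 2630 against 1646, 1962 and 1511 (log2 fold change 0.56, SE 0.07, edgeR adjusted p 6.42e-05).

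Other named genes were lower. SLC14A1, a urea transporter, had 77.9, 81.2 and 55.2 against 206, 157 and 289 normalised counts (log2 fold change -1.60, SE 0.22, edgeR adjusted p 0.000156). PPP1R16B, a regulatory subunit of protein phosphatase 1, had 172, 105 and 166 against 433, 294 and 602 (log2 fold change -1.59, SE 0.19, edgeR adjusted p 5.2e-05), with the untreated cells at 356, 344 and 379. DDIT4L, an inhibitor of mTOR signalling, had 145, 111 and 132 against 350, 253 and 458 (log2 fold change -1.45, SE 0.17, edgeR adjusted p 5.04e-05). SFTPD (surfactant protein D, a collectin), ALDH2 (mitochondrial aldehyde dehydrogenase), APCDD1 (a Wnt inhibitor) and ANGPTL2 (an angiopoietin-like secreted protein) gave -1.36, -1.29, -1.08 and -1.06. BOC, a hedgehog co-receptor, had 584, 504 and 594 against 1033, 985 and 1344 (edgeR adjusted p 4.01e-06). RAB11FIP4, an effector of RAB11 in endosome recycling, had the lowest p-value of the named genes after ACSL5, at 4597, 4265 and 4554 against 7347, 6221 and 7308 and 7111, 7339 and 7756 in untreated cells (log2 fold change -0.64, SE 0.06, edgeR adjusted p 2.82e-06). The transcription factor genes SALL1 and FOXQ1 were among those with the lowest p-values, the first at -0.53 and the second at 1649, 1687 and 1600 against 2982, 2321 and 3014 (log2 fold change -0.75, SE 0.08, edgeR adjusted p 8.89e-06). For PPP1R16B and BOC the BDNF IgA libraries lay on both sides of the untreated ones, and for RAB11FIP4 these groups overlapped. In each of these genes the TSPAN7 IgA libraries lay below both other groups.

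**Figure D5:**
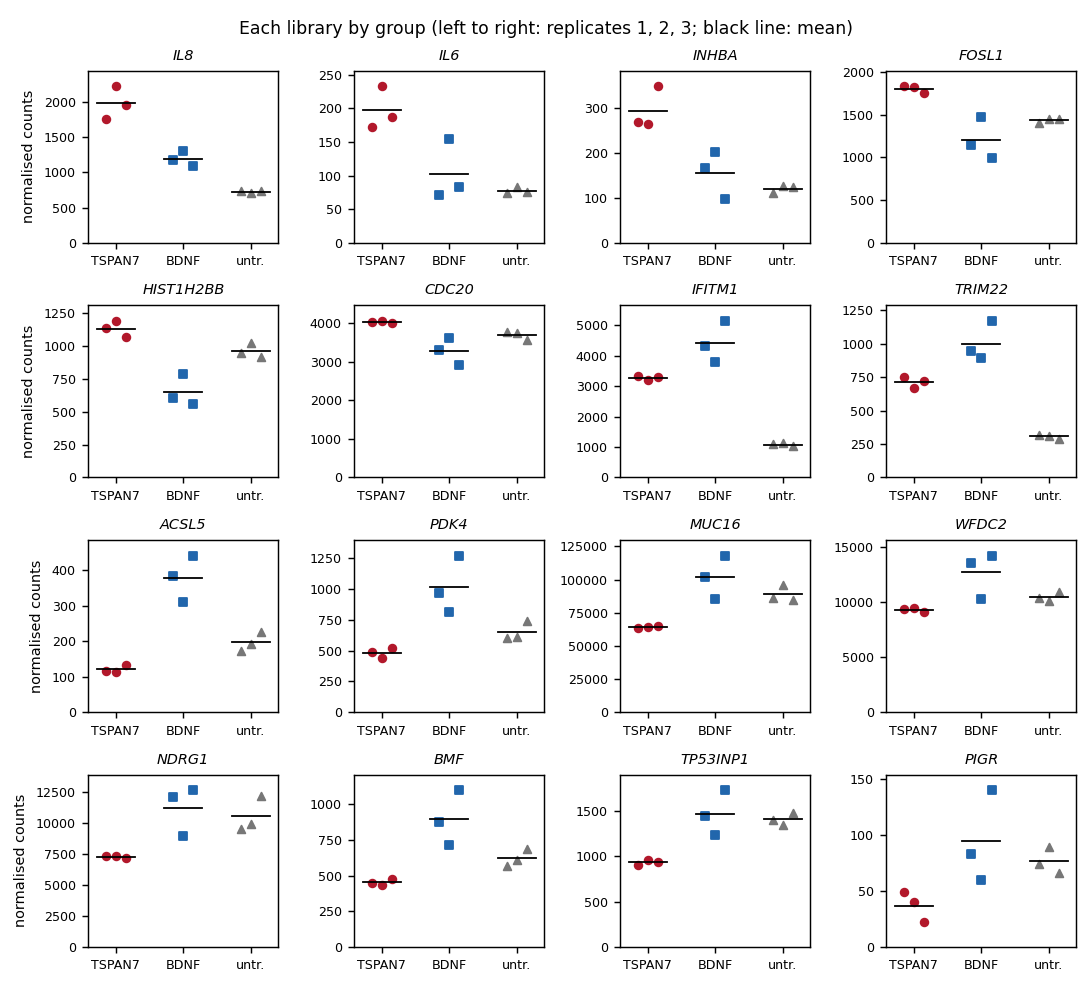
Normalised counts of 16 named genes in each library, by group, with replicates 1, 2 and 3 from left to right and a black line for the group mean. The TSPAN7 IgA libraries lie above the BDNF IgA libraries in the first 6 panels and below them in the other 10, and BDNF IgA replicate 2 is the BDNF IgA library nearest to them in all 16.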

How the data were processed

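RNA from OVCAR3 cells was sequenced by the authors as paired-end reads, trimmed with cutadapt 1.8.1, aligned to GRCh37 with STAR and counted per gene. The methods name featureCounts and the processing notes HTSeq 0.6.1. The deposited values are raw counts, and use of strand was not stated. Of 57820 rows, 2055 exact repeats (1.99% to 2.46% of the counts of a library) were dropped.

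All 9 libraries of the second series entered a single quasi-likelihood fit of edgeR 4.0.16 (R 4.3.3) after filterByExpr and TMM scaling, so that the groups share 1 estimate of spread. Tests were two-sided, and adjusted p-values are Benjamini-Hochberg over 18732 genes. The standard error of a log2 fold change is its size divided by the square root of F. Groups came from sample titles. Counts are of reads rather than of tagged molecules, so precision rests on the spread between libraries. Replicates differed by more than sampling noise (chi-square per degree of freedom 4.16 to 13.4), so none was counted as a copy. A fit of simulated counts is part of the scripts. Positions are from GENCODE on GRCh37 (33185 symbols matched, 1816 by an older symbol) and promoters from RefSeq (GRCh38.p14).

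Genes were named by rule among called protein-coding genes with at least 100 normalised counts in 1 group and no overlap: the 12 largest and 12 smallest log2 fold changes, the 6 lowest p-values in each direction, up to 4 called members of each of 40 gene lists by size (whatever their counts), and TSPAN7, BDNF and PIGR. C3, SAA1, KRT7, CLDN1, LDHA, LTBP2, LTBP3 and LTBP4 were named after their values were seen. The members and lists were chosen with earlier results of these data known. Alternatives were DESeq2 1.42.0, other scalings and filters, a GC and length correction, stricter thresholds, a replicate block and leaving out each library.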

Additional observations from a re-analysis of the deposited data

Results flagged for a closer look

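Among the genes called between the antibodies, 3 were also called higher with TSPAN7 IgA and lower with BDNF IgA against untreated cells. A further 10 were called in the opposite way (edgeR, adjusted p below 0.05 in both comparisons, which share the untreated libraries). The 6 of these genes that are named in the report are given here because the effects of the antibodies against the same untreated cells differed in sign. A call between the antibodies was a condition of the selection, so it is no separate support.

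SLC8A1 gave 0.31 with TSPAN7 IgA and -0.25 with BDNF IgA against untreated cells on the log2 scale, and 0.56 between the antibodies. For IL1R2 the values were 0.30 and -0.25, and 0.55 between them. In the other direction, FOXQ1 gave -0.38 with TSPAN7 IgA and 0.38 with BDNF IgA (-0.75 between them), PDK4 -0.42 and 0.65 (-1.07), ACSL5 -0.71 and 0.94 (-1.65) and BMF -0.45 and 0.53 (-0.98). Each of the 6 differences between the antibodies kept its call in every alternative that left out 1 library. The calls against untreated cells were not examined in the alternatives. Some were near the threshold, with edgeR adjusted p 0.0349 for SLC8A1 and 0.0271 for IL1R2 with BDNF IgA, and 0.0385 for PDK4 with TSPAN7 IgA. The cause of the differences between the antibodies was not tested.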

How the results depend on the processing

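The genes called higher (641) and lower (843) changed by less than 1.5 times with DESeq2 (738 and 854, over 14426 genes with an adjusted p), other filters on low counts, scalings or gene sets tested. They moved further in the 6-library fit (427 higher, with 629 lower), which has fewer samples, after the GC and length correction (1069 higher, with 679 lower), at an adjusted p below 0.01 (223 and 355) and with a minimum log2 fold change of 0.25 (32 and 106). Leaving out 1 library gave 196 to 1554 higher and 286 to 1722 lower, with the highest values without BDNF IgA replicate 2. Among the 129 named genes none changed sign in those of the 20 alternatives that tested it (0 reversed; 127 were tested with DESeq2 and the stricter filter, and 128 without mitochondrial and ribosomal RNA genes), and 48 of the 128 called kept their call in every one that tested them, stricter thresholds included.

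Samples with the same replicate number did not deviate together between the antibodies (correlations 0.02, 0.09 and 0.02), so the numbers were not taken as pairs. A fit with the replicate block gave 773 higher and 955 lower, and it held 639 and 836 of the original calls.

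Depth limits the low genes. TSPAN7 and PIGR had 15 to 38 and 20 to 147 counts per library.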
